A study of Trichoderma reesei with 12 samples.

Results

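The genes described here are the very long genes of Trichoderma reesei, a filamentous fungus grown industrially for its cellulases. They are the rows of the deposited count table with a length of at least 5000 bases, apart from TrE0659C, TrE0660W and the 50 rows at each end of every identifier letter. This rule took 127 of 10879 rows. It used length and position in the table and no count. Of 140 rows with such a length, 13 were left out. The shortest members were TrF0572W (5001 bases) and TrB0514C (5004 bases), and the longest rows just outside were TrE0611C (4992 bases) and TrD0749W (4983 bases). On average over the 12 libraries, TrF0572W stood at 227 CPM and TrB0514C at 222 CPM, against 104 CPM for TrE0611C and 144 CPM for TrD0749W, where CPM are counts per 1000000 counts of a library after scaling.

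RNA was sequenced from mycelium grown for 96 h at 28 °C in minimal medium with cellulose. The parent, QM6aΔku80, called ku80 here, lacks ku80, a gene of non-homologous end joining whose loss eases gene targeting. The mutant, QM6aΔku80Δsor4, called sor4 here, lacks sor4 as well, which the series title describes as a transporter of the SOR cluster, and so both strains carry the ku80 deletion. There were 2 libraries of ku80 in darkness, 4 of sor4 in darkness, 2 of ku80 in light and 4 of sor4 in light. Darkness is all that the treatment protocols mention, for light samples too, and light or darkness was taken from the titles and treatment labels. The sources used here do not give the number of sor4 deletion clones or whether replicates were separate cultures, so the spread behind the p-values is that among these libraries and may be technical. No row carries the name sor4, and the deletion was not checked in the counts. Total counts ran from 7844524 to 12027855 per library, and libraries of the same group differed by more than sampling noise (chi-square per gene of 7.06 to 78.8).

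In fungi, exceptionally long genes are known to encode large multidomain proteins. Polyketide synthases and nonribosomal peptide synthetases, which assemble pigments, toxins and peptide antibiotics, are one kind, and the peptaibol synthetases of Trichoderma are among the longest. Others serve every cell, such as the heavy chain of dynein, the TOR kinase, fatty acid synthase and acetyl-CoA carboxylase. Light acts on fungal transcription through blue-light receptor complexes and is known to affect growth, sporulation, enzyme production and secondary metabolism in Trichoderma. None of the identifiers matched a gene of the reference table (0 of 127 members among 9116 reference genes), so the members are given by identifier, with no protein or role.

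The long genes ran from 5001 to 29481 bases with a median of 6006, against a median of 1113 over all rows. Of the 127, 63 were under 6000 bases and 8 had 10000 or more. The lengths of 123 members were multiples of 3, as coding lengths are. All 7 identifier letters held members, from 0.91% of the rows of letter B to 1.49% of those of letter G. Identifiers ending in W numbered 55 and those ending in C 72.

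Nearly all long genes, like nearly all rows of the table, were transcribed. A count was seen in 124 of the 127 (97.6%, against 96.4% of all rows), and 119 (93.7%) had a count in each of the 12 libraries, against 76.6% of all rows. The filter on low counts was passed by 122 members (96.1%), against 82.2% of all rows and 69.7% of rows under 1000 bases. A longer gene takes more reads at the same number of transcripts, and the filter works on reads: the median row had 33252 counts over the 12 libraries among the members and 662 among rows under 1000 bases. Between 2000 and 3000 bases, 96.2% of rows already passed. In that class 99.5% of rows had a count and 93.5% had a count in each of the 12 libraries. The 3 members with no count were TrF0401C, TrG0614W and TrG0875C, which has 10376 bases; a total of 0 allows a level of up to 0.0251 CPM over the 12 libraries (3 counts, for counting error only). The 2 members that had counts but did not pass, TrA1976C and TrF0197C, had 9 and 19 counts in all, each of them in darkness and none in light.

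Per kilobase of length, the long genes that passed the filter stood at a median of 50.8 CPM, against 28.6 over all 8939 genes tested, and the value rose over the length classes from 26.3 under 1000 bases and 25.9 between 1000 and 2000 bases to 33.7 and 40.7 in the next classes. They spanned 0.359 to 738 CPM per kilobase. A level under 10 CPM per kilobase was found in 13 of them (10.7%, against 25.1% of all genes tested), and a level over 100 in 23 (18.9%, against 17.2%). Within the 122, length and level per kilobase were unrelated (Spearman rho = 0.02 across genes, which share the same libraries, as a description).

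**Figure D1:**
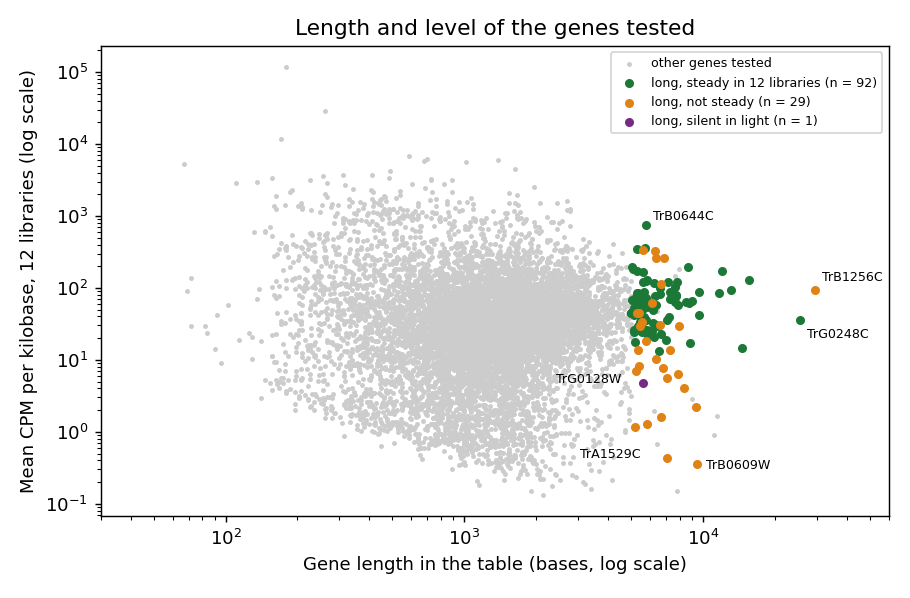
Length in bases (horizontal, log scale) against the mean CPM per kilobase over 12 libraries (vertical, log scale) for the genes that passed the filter. Coloured points are the long genes by class and grey points the other genes; the long genes lie between 0.359 and 738 CPM per kilobase.

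The most abundant long gene per kilobase was TrB0644C, of 5784 bases, at 738 CPM per kilobase. It stood at 4428 and 4184 CPM in ku80 in darkness, 3888, 4233, 4432 and 4372 CPM in sor4 in darkness, 3938 and 4575 CPM in ku80 in light, and 4282, 4142, 4396 and 4382 CPM in sor4 in light. All 4 groups overlapped, and the gene took 0.398% to 0.467% of the counts of every library. TrC1132W and TrC0491W followed at 362 and 346 CPM per kilobase. TrC1132W stayed within 1864.5 to 2264 CPM; its light effect in ku80 of 0.17 on the log2 scale did not pass (adjusted p = 0.145) but did with DESeq2 (0.0367) and with library size alone (0.0438), over a range of 0.0367 to 0.483 across the alternatives. TrC0491W rose from 1344 to 1567 CPM in darkness to 2085 to 2304 CPM in light without overlap (log2 fold change 0.62, SE 0.098, adjusted p = 0.000414 in ku80; 0.56, SE 0.069, adjusted p = 3.88e-05 in sor4; edgeR quasi-likelihood test).

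Of the 8 members of 10000 bases or more, 6 varied by at most 2-fold over the 12 libraries, TrG0875C had no counts and TrB1256C rose in light. Among the 6, named because they were few, TrA1422W (11988 bases) rose by 0.35 in ku80 and 0.21 in sor4 on the log2 scale (adjusted p = 0.00839 and 0.0157); the ku80 call ended in a fit of the ku80 libraries alone (0.132). TrA0139W (11646 bases) rose in sor4 by 0.18 (adjusted p = 0.024), a call that ended without sor4 dark replicate 2 (0.0643), sor4 dark replicate 3 (0.0603) or sor4 light replicate 1 (0.0503). In ku80 its effect of 0.17 did not pass (0.14) but did with DESeq2 (0.0274). The light effects of the other 4, TrB0063W, TrC0677C, TrG0248C and TrG0670C, passed in neither strain. That of TrB0063W, -0.23 in ku80 and -0.34 in sor4, passed in ku80 without ku80 light replicate 2 (-0.66, 0.0256), and in sor4 in a fit of the sor4 libraries alone (0.0206) and without ku80 light replicate 1 (0.0236), ku80 light replicate 2 (0.0253) or sor4 dark replicate 3 (0.0367). TrG0670C, the third longest with 15522 bases, stood between 1909 and 2163 CPM in all libraries. TrG0248C, with 25413 bases, stood at 896.5 and 649 CPM in ku80 in darkness and at 1253, 789, 787 and 1226 CPM in sor4 in darkness; in light it stood at 888.5 and 772.5 CPM in ku80 and at 766.5, 729.6, 1085 and 1051 CPM in sor4. Its spread lay between replicates of the same group, replicates 1 and 4 of sor4 in darkness being the highest, and no effect of light or strain passed the test.

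Most long genes were expressed steadily. Counting as steady a gene with at least 5 CPM in all 12 libraries and a highest CPM of at most 2 times the lowest, 92 of 127 were steady (72.4%), against 37.0% of all rows. Among genes with at least 5 CPM in every library the shares were 79.3% (92 of 116) and 62.8%, and by length class they rose from 59.8% under 1000 bases and 59.7% between 1000 and 2000 bases to 69.6% and 73.6% in the next classes. Counting noise falls as counts rise and counts rise with length; its part in this order was not tested. The class was cut from these values and is a description. The steady members all stood at 60.1 CPM or more, and the ratio of highest to lowest ran from 1.12 to 1.98 with a median of 1.36. In 12 it was under 1.2, and 10 other members lay just outside the class, between 2 and 2.5.

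The steadiest were TrB0839W, of 7296 bases, and TrC0677C, of 13074 bases. TrB0839W stood at 662 and 656 CPM in ku80 in darkness, 649, 633, 595 and 604 CPM in sor4 in darkness, 636 and 669 CPM in ku80 in light, and 605, 615, 625 and 627 CPM in sor4 in light. Light and dark libraries overlapped, while within each condition both ku80 libraries lay above the 4 sor4 libraries; the strain effect passed in neither (log2 fold changes -0.09 and -0.08, adjusted p = 0.84 and 0.809). On the log2 scale its light effect had a 95% interval of -0.19 to 0.16 for ku80 and -0.13 to 0.12 for sor4. TrB0839W was chosen for its small ratio of highest to lowest, which also keeps this effect small. TrC0677C stood between 1148 and 1276 CPM in darkness and between 1182 and 1294 CPM in light. Its light effect passed the test in neither strain (adjusted p = 0.164 in ku80 and 0.867 in sor4), but in ku80 it passed with DESeq2 (0.0261) and with library size alone (0.0485), over a range of 0.0261 to 0.404 across the alternatives.

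Steady by this measure did not mean free of a light effect. Of the 92, 31 were called higher and 6 lower in light in both strains, beside 17.6% and 20.3% of all genes tested. Another 16 were called in 1 strain and 39 in neither. The log2 fold changes of the 92 spanned -0.64 to 0.85 in ku80 and -0.60 to 0.74 in sor4. In 91 of them the 95% intervals of the light effect lay within 2-fold either way in both strains. The 2-fold cut that defines the class bounds these effects in advance, so the span and intervals only describe the class.

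Light changed many long genes, mostly by little, and raised more than it lowered. In ku80, 45 of the 122 tested rose in light (36.9%, against 19.8% of all genes tested) and 15 fell (12.3%, against 22.8%), at a Benjamini-Hochberg adjusted p under 0.05 in edgeR's quasi-likelihood test over all 8939 genes. Changes of at least 2-fold were found in 4 that rose (3.28%, against 8.6%) and 7 that fell (5.74%, against 14.1%). In sor4, 53 rose (43.4%, against 26.6%) and 26 fell (21.3%, against 28.8%), of which 6 rose (4.92%, against 8.79%) and 10 fell (8.2%, against 15.9%) at least 2-fold. The median log2 fold change of the members was 0.16 in ku80 and 0.10 in sor4, beside -0.02 and -0.01 over all genes tested. With library size alone these medians were 0.24 and 0.14. In RNA of whole mycelium, fewer cells that express a gene and less of its RNA per cell cannot be told apart.

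The changes that passed the test were smaller than those of shorter genes. Of the members called in ku80, 18.3% reached 2-fold, against 60.2% of called genes under 1000 bases, and in sor4 20.3% against 51.2%. The median standard error of the log2 fold change in ku80 was 0.098 for the members and 0.27 for genes under 1000 bases; its part in the smaller size of called changes was not tested. The median size of the log2 fold change, called or not, was 0.32 in ku80 and 0.26 in sor4 for the members and 0.56 and 0.49 under 1000 bases. Over the 5 length classes, the share that rose increased at each step in both strains. No test of these differences between length classes was made.

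**Figure D2:**
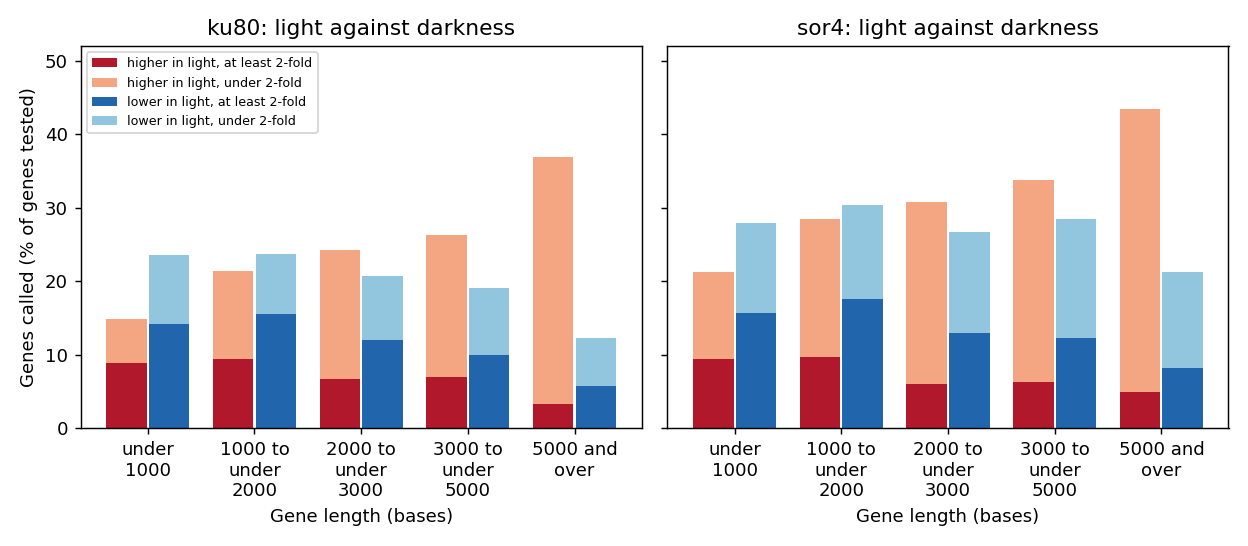
Genes called higher (red) or lower (blue) in light as a percentage of genes tested, by gene length in bases, for ku80 (left) and sor4 (right); dark parts of the bars are changes of at least 2-fold. In the class of 5000 bases and over, 36.9% rose and 12.3% fell in ku80, and 43.4% rose and 21.3% fell in sor4.

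The light effects of the strains come from separate libraries. Over all genes tested, 17.6% were called higher and 20.3% lower in light in both strains. In both strains 43 members rose, which is 95.6% of the ku80 list and 81.1% of the sor4 list, against 88.8% and 66.1% over all genes tested. In both 15 fell, which is 100% of the ku80 list and 57.7% of the sor4 list, against 89.3% and 70.8%. None (0) was called in opposite directions; the fitted effects had the same sign in 111 members and opposite signs in 11. Another 2 were called in ku80 alone, 21 in sor4 alone and 41 in neither, and in 40 of these 41 both intervals lay within 2-fold. When the 4 ku80 libraries were fitted on their own, 27 members were called higher and 9 lower in light.

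**Figure D3:**
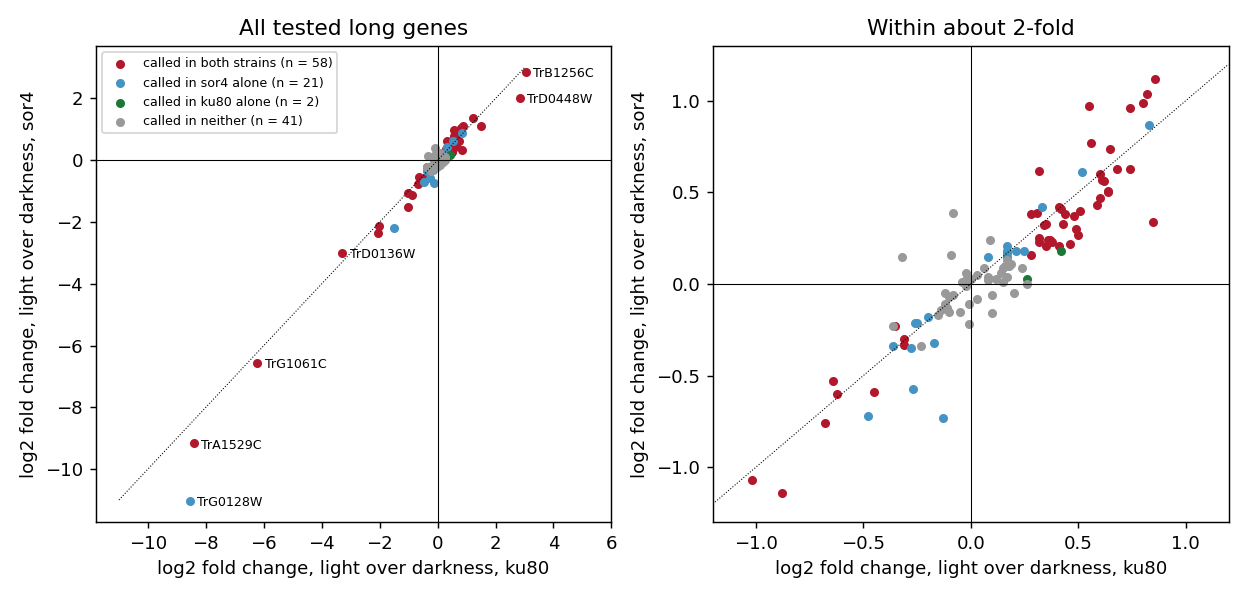
The log2 fold change of light over darkness in ku80 (horizontal) and sor4 (vertical) for the 122 tested long genes, in full (left) and within about 2-fold (right), with the dotted line marking equal change. Most points lie near 0, the 58 called in both strains keep 1 direction, and TrG0128W, TrA1529C and TrG1061C lie far below 0.

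The longest gene of the table was also the member that rose most. TrB1256C, of 29481 bases, stood at 639.9 and 485 CPM in ku80 in darkness and at 853, 552, 594 and 691 CPM in sor4 in darkness. In light it stood at 5922 and 3388 CPM in ku80 and at 4486, 4872, 5309.9 and 4933 CPM in sor4. Every light library was higher than every dark one; in light the ku80 libraries were the highest and the lowest of the 6. The log2 fold change was 3.05 in ku80 (8.28-fold, SE 0.28, adjusted p = 7.01e-06) and 2.87 in sor4 (7.29-fold, SE 0.19, adjusted p = 2.95e-07), and it passed under each alternative run. Its share of all counts went from 0.0476% to 0.0872% in darkness to 0.346% to 0.610% in light, where its count ranked between 4 and 15 among all genes. Its length takes part in that rank: per kilobase it stood at 158 CPM in ku80 and 166 CPM in sor4 in light.

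TrD0448W, of 7047 bases and less abundant, stood at 15.8 and 9.08 CPM in ku80 and at 12.8, 12.7, 16.7 and 10.8 CPM in sor4 in darkness. In light it reached 76.0 and 101 CPM in ku80 and 48.3, 58.7, 58.8 and 49.7 CPM in sor4. Light and dark libraries did not overlap, which the rule for naming this gene required. The sor4 light libraries all lay below the ku80 ones. It rose 7.13-fold in ku80 (log2 fold change 2.83, SE 0.27, adjusted p = 9.79e-06) and 4.07-fold in sor4 (2.02, SE 0.19, adjusted p = 3.60e-06); the difference between the strains did not pass (-0.81, SE 0.31, adjusted p = 0.756). TrB0237W and TrC0730C, which complete the 4 that rose at least 2-fold in ku80, were named after their values were seen. TrB0237W rose 2.84-fold in ku80 and 2.14-fold in sor4, and TrC0730C rose 2.35-fold and 2.58-fold.

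The members TrC0441C (6306 bases) and TrC0442W (5583 bases), also named after their values were seen, stand next to each other in the table and had nearly the same level in each library. TrC0441C stood at 1425 and 1614 CPM in ku80 in darkness and TrC0442W at 1261 and 1477 CPM; in sor4 in darkness TrC0441C stood at 1189 to 1517 CPM and TrC0442W at 1021 to 1308 CPM. In light the ku80 libraries had 3031 and 2319.8 CPM of TrC0441C and 2800.3 and 2177 CPM of TrC0442W, and sor4 had 2639 to 2922 and 2458 to 2794 CPM. Replicate 1 of sor4 was the lowest dark library and replicate 2 of ku80 the lowest light library for both genes. TrC0441C rose by 0.82 in ku80 and 1.04 in sor4 on the log2 scale and TrC0442W by 0.86 and 1.12, with adjusted p between 4.57e-06 and 0.000973. Of the 5 other pairs of members that stand at most 3 rows apart, TrC0489C and TrC0491W both rose in both strains (0.31 and 0.62 in ku80), as did TrF1158W and TrF1161W (0.61 and 0.56). The ku80 call of TrC0489C (adjusted p = 0.0313) ended in a fit of the ku80 libraries alone (0.151) and without ku80 dark replicate 1 (0.0939), ku80 dark replicate 2 (0.12) or ku80 light replicate 1 (0.143). In the other 3 pairs both partners passed the test in at most 1 strain. TrC0842W and TrC0845C had light effects of 0.60 and 0.26 in ku80 and 0.60 and 0.03 in sor4, TrG0625C and TrG0626C 0.83 and 0.26 in ku80 and 0.87 and 0.00 in sor4, and TrF0230C and TrF0232W -0.32 and -1.02 in ku80 and 0.15 and -1.51 in sor4.

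Silence in 1 light condition was rare, among the long genes as over all rows. A gene was counted as silent where all 6 libraries of a condition were under 0.5 CPM and all 6 of the other at 2 CPM or more. By this rule 1 member, TrG0128W, was silent in light (0.787%) and 0 were silent in darkness, beside 73 and 9 of all rows (0.671% and 0.0827%). TrG0128W has 5592 bases and stood at 6.71 and 2.79 CPM in ku80 in darkness. In sor4 in darkness it stood at 84.4, 199, 15.8 and 10.3 CPM in replicates 1 to 4. In light the ku80 libraries had 0 counts and the sor4 libraries 0, 0, 0 and 1 count. The rule for silence requires a fall in light, so the ratios and tests given here only describe this gene. Pooled, ku80 had 96 counts in darkness, a level at least 28.3-fold higher than in light if 3 counts are set as the floor for a group, and sor4 had 2805 counts, a ratio of 2865 (95% exact interval 513.8 to 113201, for counting error only). Its light effect passed in sor4 (adjusted p = 0.000211), though not with limma-voom (0.144), and did not pass in ku80 (0.0813; 0.00131 to 0.521 over the alternatives), where it did with DESeq2 (0.00131), in a fit of the ku80 libraries alone (0.0195), and without sor4 dark replicate 2 (0.0205) or sor4 dark replicate 4 (0.0382). Replicate 2 gave 1743 of the sor4 dark counts, and without it the log2 fold change in sor4 went from -11.02 to -9.96; without sor4 light replicate 4, which held the 1 light count, it was -12.57.

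Apart from TrG0128W, TrA1529C and TrG1061C had the largest falls among the members called lower in both strains. The rule for naming them required these calls and no overlap between light and dark libraries. TrA1529C, of 7071 bases, stood at 6.20 and 2.43 CPM in ku80 and at 0.86, 4.58, 9.08 and 14.0 CPM in sor4 in darkness, and it had 0 counts in all 6 light libraries. It missed the rule for silence by the one dark library under 2 CPM, and without sor4 dark replicate 1 the number of silent members was 2. With the same floor, its level in darkness was at least 25.7-fold higher in ku80 (87 counts) and at least 102.8-fold higher in sor4 (302 counts; adjusted p = 0.0239 and 0.00176). In ku80 the call ended with limma-voom (0.0929) and without ku80 dark replicate 1 (0.0781), ku80 light replicate 1 (0.0904) or ku80 light replicate 2 (0.0785). Without ku80 dark replicate 1 the log2 fold change was -7.61 in place of -8.42, and without sor4 dark replicate 4 it was -8.57 in sor4 in place of -9.16.

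TrG1061C, of 6369 bases, was far more abundant in darkness, with 126 and 164 CPM in ku80 and 129, 127, 131.5 and 103 CPM in sor4. In light it had 0 and 4.25 CPM in ku80 and 0.729, 0.882, 2.15 and 1.31 CPM in sor4. No light library came near a dark one, where the rule for naming this gene required no overlap. Traces remained in 5 of the 6 light libraries. The pooled ratio was 79.3 in ku80 (95% exact interval 56.6 to 115) and 94.5 in sor4 (71.9 to 127), with adjusted p of 3.70e-05 and 9.53e-07. All 34 light counts of ku80 came from replicate 2, and the log2 fold change of -6.22 in ku80 became -13.52 without that library and -5.08 without ku80 light replicate 1.

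**Figure D4:**
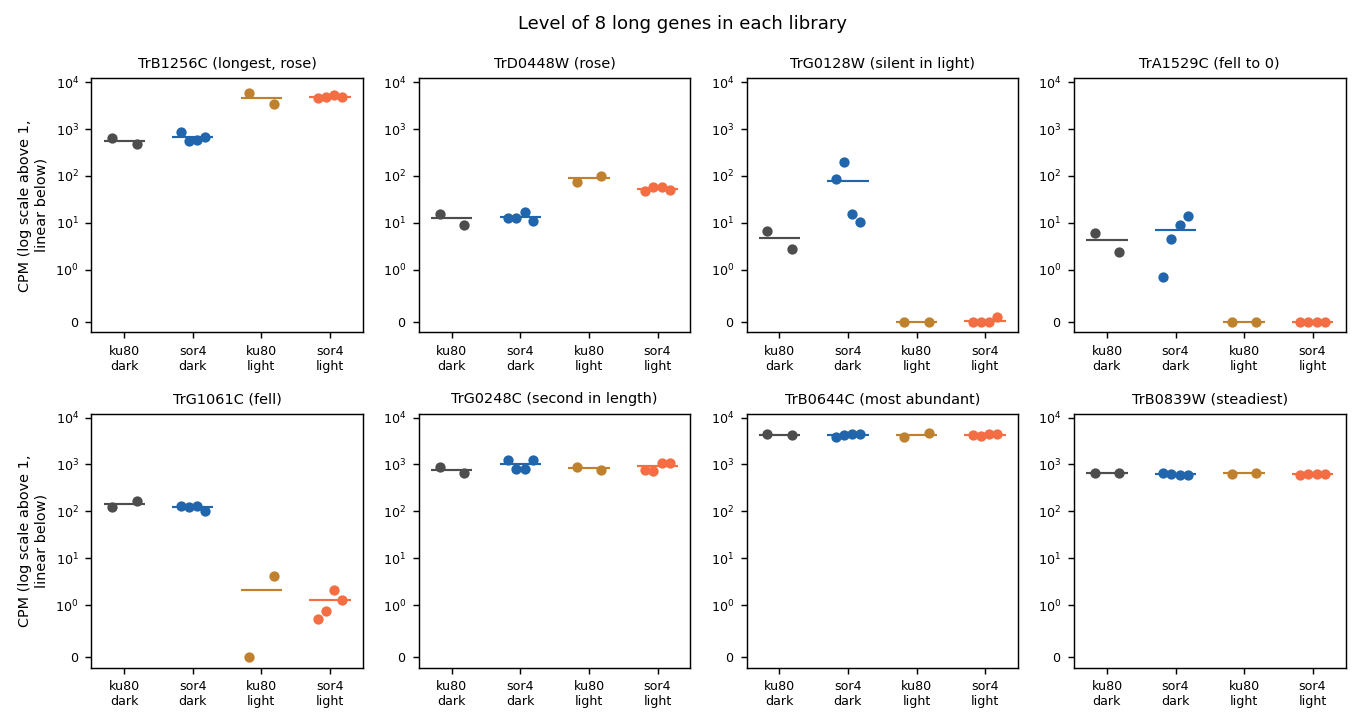
CPM of 8 long genes in each of the 12 libraries (points) with group means (lines), on an axis that is logarithmic above 1 and linear below. TrB1256C and TrD0448W are higher in all light libraries, TrG0128W, TrA1529C and TrG1061C are at or near 0 in light, and the levels of TrG0248C, TrB0644C and TrB0839W overlap between light and darkness.

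The rows on either side of these genes in the table were also looked at, 3 before and 3 after, those of TrA1529C and TrG1061C after the values of these genes were seen. Of the 5 neighbours of TrG0128W that were tested, 2 fell in light in ku80 and 4 in sor4. Over all genes tested, 22.8% fell in ku80 and 28.8% in sor4. The sor4 calls of TrG0126C and TrG0127W ended with limma-voom (adjusted p = 0.291 and 0.0714). In ku80 neither passed, but TrG0126C did in a fit of the ku80 libraries alone (0.0226) and TrG0127W with DESeq2 (0.0179). TrG0126C, 2 rows before TrG0128W, was like it highest in replicates 1 and 2 of sor4 in darkness. It had 328, 632, 5.95 and 9.66 CPM in sor4 replicates 1 to 4. In ku80 it stood at 23.1 and 12.6 CPM, above sor4 replicates 3 and 4, unlike TrG0128W. Of 3 tested neighbours of TrA1529C, the next 2 rows, TrA1530C and TrA1531C, also fell in both strains, though the call of TrA1531C in ku80 ended with limma-voom (adjusted p = 0.0696). The third, TrA1527C, was called higher in both strains, but in ku80 its effect was -0.37 without ku80 light replicate 2 (adjusted p = 0.745). TrA1531C stood at 2.58, 8.01, 18.7 and 19.9 CPM in sor4 in darkness, the same order of libraries as TrA1529C, and had 0 counts in light. Of 4 tested neighbours of TrG1061C, 1 fell in both strains.

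The tested members outside both classes numbered 29. In both strains, 12 of them rose and 9 fell in light, beside 17.6% and 20.3% of all genes tested. Another 6 were called in 1 strain and 2 in neither. These genes lie outside the steady class by their spread or level, so changes among them follow in part from that cut. Of the 29, 24 had at least 5 CPM in every library, and 5 went below it in some library. These 5 were TrA1529C and TrG1061C together with TrB0609W, TrC0827C and TrF0232W, named here because they were few. TrB0609W, of 9453 bases, was the tested member with the lowest level per kilobase; it stood at 3.43 to 8.17 CPM in darkness and 0.672 to 3.25 CPM in light and fell in sor4 (log2 fold change -2.19, SE 0.48, adjusted p = 0.00222), with -1.49 in ku80 (SE 0.65, adjusted p = 0.0834), where it passed with limma-voom (0.0364) and without ku80 light replicate 2 (-2.95, 0.0104). TrC0827C fell from 5.39 to 12.8 CPM to 1.12 to 3.25 CPM, by 2.05 in ku80 and by 2.34 in sor4 on the log2 scale (adjusted p = 0.00691 and 0.000197); in ku80 the effect was -1.54 without ku80 light replicate 1 (0.0558) and -2.70 without ku80 light replicate 2. TrF0232W fell from 11.9 to 19.9 CPM to 4.66 to 7.48 CPM, by 1.02 and by 1.51 (adjusted p = 0.00946 and 4.35e-05); the ku80 call ended in a fit of the ku80 libraries alone (0.0643) and without ku80 dark replicate 2 (0.082) or ku80 light replicate 2 (0.0625). For each of these 3 genes the dark libraries lay above all light ones.

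The remaining members with a called fall of 2-fold or more in both strains were more abundant and stayed expressed in light; they are named because they were few. TrD0136W, of 6825 bases, fell from 86.1 and 134 CPM to 11.8 and 10.7 CPM in ku80 and from 55.5 to 121 CPM to 9.48 to 14.4 CPM in sor4 (log2 fold changes -3.29 and -2.99, SE 0.36 and 0.25, adjusted p = 2.80e-05 and 1.65e-06). TrE0613W, of 6142 bases, fell from 551 and 647 CPM to 145 and 151 CPM in ku80 and from 484 to 868 CPM to 134 to 156.5 CPM in sor4 (-2.02 and -2.14, adjusted p = 3.54e-05 and 6.89e-07). TrC1431C, of 6618 bases, fell from 176 to 431 CPM in the 6 dark libraries to 115 to 164 CPM in the 6 light ones (-1.02 and -1.07, adjusted p = 0.0252 and 0.00203); the ku80 call ended without ku80 dark replicate 1 (0.155), ku80 light replicate 1 (0.0561) or ku80 light replicate 2 (0.123). In each of these the light libraries lay below all dark ones. TrG0608C, of 5412 bases, fell by 1.14 in sor4 and by 0.88 in ku80 on the log2 scale (adjusted p = 1.70e-05 and 0.00224), past 2-fold in sor4 only; the ku80 call ended in a fit of the ku80 libraries alone (0.0653).

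The long genes together took more of the counts in light. In darkness their share was 5.44% ± 0.088 for ku80 (SD, n = 2) and 5.51% ± 0.24 for sor4 (SD, n = 4); in light it was 7.12% ± 0.28 for ku80 and 6.89% ± 0.016 for sor4, beside 5.90% of the summed gene length. The dark libraries lay between 5.36% and 5.86% and the light ones between 6.88% and 7.32%. Without TrB1256C the means were 5.39% and 5.44% in darkness and 6.65% and 6.39% in light. The steady members alone went from 4.53% ± 0.037 and 4.64% ± 0.24 to 5.32% ± 0.039 and 5.12% ± 0.034. Shares of counts sum to 100% in each library, so a fall elsewhere raises them.

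**Figure D5:**
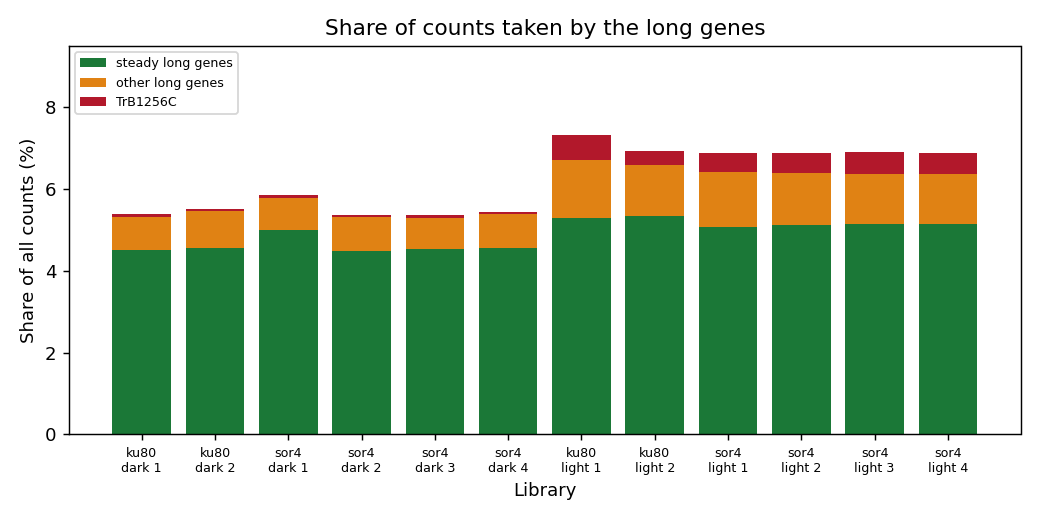
Share of all counts (%) of each library taken by the 127 long genes, split into steady members, other members and TrB1256C. All 6 light libraries, at 6.88% or more, lie above all 6 dark ones, at 5.86% or less.

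Loss of sor4 left no change in the long genes that passed edgeR's test. In darkness 0 of 122 were called (0.0336% of all genes tested), 13 had an unadjusted p under 0.05 (10.7%, against 7.75%), DESeq2 called 4 (3.28%, against 0.738%) and limma-voom 0 (against 0.0336%). In light 0 were called (against 0.0%), 5 had an unadjusted p under 0.05 (4.1%, against 8.17%), and DESeq2 and limma-voom called 0 each (against 0.582% and 0.0224%). The strains were less than 1.2-fold apart in 105 members in darkness (86.1%, against 71.4% of all genes tested) and in 113 in light (92.6%, against 70.0%). In both conditions 115 members (94.3%) had a 95% interval within 2-fold, against 75.2% in darkness and 73.1% in light over all genes tested. The median log2 fold change of sor4 over ku80 was near 0 in darkness and -0.06 in light, where it was 0 over all genes. By length class, this median in light went from 0.06 under 1000 bases to near 0 between 1000 and 2000 bases. In the next classes it was -0.04 and -0.05, nearly the shift of the members. In light 95 of the members were lower in sor4 and 26 higher, a split that was not compared with that of other genes.

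The strain effect nearest to the threshold in darkness was that of TrF0713C, of 5400 bases. It stood at 193 and 256 CPM in ku80 and at 151, 151, 152 and 152 CPM in sor4, which lay below both ku80 libraries. This difference of -0.57 on the log2 scale (SE 0.096) did not pass (adjusted p = 0.154), with adjusted p from 0.000316 with DESeq2 to 0.766 over the alternatives, and it passed in edgeR without ku80 dark replicate 1 (0.00395). It is one of the 4 members that DESeq2 called; the others were TrA1358W, TrE0593C and TrF0572W, named because they were few, with log2 fold changes of -0.43, -0.38 and -0.38 in edgeR. The largest difference was that of TrG0128W, higher in each sor4 dark library than in both ku80 ones by a log2 fold change of 4.04 (SE 1.2), at an adjusted p of 0.404. In light TrG0446W, of 6519 bases, had the smallest p, with 115 and 117 CPM in ku80 and 102, 89.9, 96.9 and 85.1 CPM in sor4 (log2 fold change -0.31, SE 0.087, adjusted p = 0.392).

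A difference of the strain effect between light and darkness was tested for as well. In edgeR 0 members passed (0.0% of all genes tested), 7 had an unadjusted p under 0.05 (5.74%, against 6.59%), and DESeq2 and limma-voom called 0 each (against 0.0895% and 0.0%). The smallest adjusted p was 0.691, again in TrG0446W. In darkness it stood at 68.6 and 60.1 CPM in ku80 and at 70.8, 72.8, 75.7 and 75.7 CPM in sor4. The sor4 libraries were thus all higher in darkness and all lower in light, and the difference was -0.51 (SE 0.13). The 95% interval of this difference lay within 2-fold for 108 members (88.5%, against 62.2% of all genes tested). This share was not compared between length classes.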

How the data were processed

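The deposited table holds whole-number counts per gene from the authors' featureCounts run, as its name says, and a length per gene. HISAT2 2.2.1 is named in the submitters' processing notes, and the labels' protocols give a stranded kit with depletion of ribosomal RNA. The sources used here do not give the build, annotation or strand setting, so reads of genes that overlap, on the same or opposite strands, cannot be assigned with certainty, nor can those of near-identical genes. Log2 fold changes, CPM and p-values were computed here from the counts.

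All rows were tested with edgeR 4.0.16 (R 4.3.3), with TMM scaling, the default low-count filter by group, and 1 quasi-likelihood fit of 4 group means over the 12 libraries; 8939 genes passed. A call needed a Benjamini-Hochberg adjusted p under 0.05. CPM use TMM-scaled library totals. The scripts were tested on simulated counts. Alternatives were DESeq2 1.42.0, voom from limma 3.58.1, median-of-ratios factors, library size alone, the table without a filter, only the groups compared, the replicate block and each library left out. The length rule uses no counts, but it, the lists and the classes were chosen with earlier results of these data known. Named are the 3 longest, 3 most abundant, 2 steadiest and silent members, the 2 with the largest rise or fall in both strains without overlap, and the smallest p per strain comparison. Exact intervals of pooled ratios cover counting error only. Intervals of log2 fold changes come from the quasi-likelihood fit and take in the spread between libraries.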

Additional observations from a re-analysis of the deposited data

Results flagged for a closer look

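In the sor4 groups, 34 sets of 4 values (the CPM of named members and shares of counts) were screened for 1 value apart from the rest. Such a screen flags about 1 in 20 groups by chance; here it marked 2. In TrG1061C the value was 102.9 CPM for replicate 4 of sor4 in darkness, where the other 3 lay between 126.6 and 131.5 CPM. In TrG0128W it was 0.0932 CPM, from 1 count, for replicate 4 of sor4 in light, where the other 3 were at 0.

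TrG0446W was marked because every sor4 library lay above the ku80 libraries in darkness and below them in light. The strain effects differed by -0.51 on the log2 scale, which did not pass the test (adjusted p = 0.691, edgeR).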

How the results depend on the processing

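The counts of members called, steady or silent stayed within 1.5 times under 158 of 164 alternative values. Among the 158 are strain comparisons with 0 members called in both fits, where such a ratio has no meaning. Others are fits without a library that lay outside the groups compared. With only the 4 ku80 libraries, 27 members rose and 9 fell in light in ku80. DESeq2 called 4 members between the strains in darkness. With a level of 0.5 CPM in place of 2 in the other condition, an alternative chosen after seeing the data, 2 members were silent in 1 light condition. Leaving out each library in turn gave 36 to 49 members that rose and 10 to 19 that fell in ku80, 46 to 55 and 20 to 28 in sor4, 91 to 95 steady, 1 to 2 silent, 0 to 1 called between the strains in darkness, and 0 in light or for the difference. A ratio of at most 1.5 left 66 steady members. The cause of these shifts was not tested, apart from the smaller number of libraries where some were left out.

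Deviations from the group means correlated between same-numbered libraries at -0.198 to 0.089. In a group of 2 libraries these deviations mirror each other, so such correlations cannot show that the libraries are unpaired. With the replicate block, 42 members rose and 14 fell in ku80 and 45 and 21 in sor4. Under the block TrG0128W passed in ku80 (adjusted p = 0.00709), while TrA0139W in sor4 (0.058) and TrC0489C and TrC0845C in ku80 (0.0543 and 0.0601) did not.

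Named members with light effects near 0, none of which passed the test, changed sign in some settings. With library size alone the log2 fold change in ku80 was 0.06 for TrG0670C, TrB0644C and TrB0839W, and 0.03 in sor4 for TrB0839W. With only the groups compared it was 0.00 for TrB0644C and 0.01 for TrB0839W in ku80, with no filter 0.00 for TrB0839W in sor4, and for TrC0677C in sor4 -0.01 with median-of-ratios factors and -0.00 with DESeq2. Leaving out each library in turn gave -0.11 to 0.35 for TrG0248C, -0.06 to 0.04 for TrG0670C, -0.11 to 0.10 for TrB0644C and -0.03 to 0.03 for TrB0839W in ku80, and -0.01 to 0.05 for TrB0644C and -0.03 to 0.02 for TrB0839W in sor4.

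The groups of 2 ku80 libraries limit every comparison with them; with 1 left out, the lone sample is taken to vary as the other groups do. Levels at or near 0 in light rest on few counts.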
